A study of Homo sapiens with 16 samples.

Results

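The T cell receptor complex and its first signalling steps were followed through 9 genes: the CD3 chain genes CD3D, CD3E and CD3G, the zeta chain gene CD247, the kinase genes LCK and ZAP70, the adaptor genes LAT and TRAT1, and the costimulatory receptor gene CD28. They were chosen by gene symbol, 9 of the 57820 genes in the count table, and each symbol matched 1 row. RNA-seq counts came from 16 libraries of Jurkat and HSB-2, a pair of established lines of T-cell acute lymphoblastic leukemia (T-ALL) with the genotype label TAL1+, in 8 groups of 2 libraries. In each line the groups were wild-type cells, cells carrying a scrambled control (called siRNA in the sample labels and shRNA in the series design), and cells carrying USP7 shRNA-4057 or USP7 shRNA-4058. The USP7 hairpins were delivered by lentivirus, how the control was delivered is not given in the sources used here, the cells of a group came from 1 line, and no source states whether the 2 libraries of a group came from separate transductions, so p-values measure only the spread between these libraries.

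In a T cell the antigen-binding receptor chains have no signalling tails of their own. The CD3 chains and the zeta chain carry the activation motifs. LCK phosphorylates these motifs, ZAP70 binds to them and phosphorylates the adaptor LAT, and CD28 adds the costimulatory signal when it meets its ligands on an antigen-presenting cell. TRAT1, also called TRIM, is a transmembrane adaptor that associates with the receptor complex. Jurkat is the line in which much of this pathway was worked out. HSB-2 is known for a chromosomal translocation that joins the LCK locus to the T cell receptor beta locus; the translocation was not examined here.

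Total counts lay between 86.9 and 110 M (mega) in Jurkat and between 76.6 and 235 M in HSB-2. Both lines expressed T-lineage genes: of 10 listed markers, 9 or 10 were over 1 CPM (counts per 1000000, with library totals scaled by TMM factors) in the Jurkat groups and 7 to 9 in the HSB-2 groups, where CD4 lay between 0.106 and 0.304 CPM as a group mean. The summed level of the T-lineage list in HSB-2 was 1139.8 to 1144 CPM in wild-type, 965 to 997 CPM in scrambled and 1404 to 1548 CPM in shRNA libraries, against 1683 to 1943 CPM over the Jurkat libraries. Of the other lineages, the 6 myeloid and 6 erythroid markers summed to between 0.560 and 1.97 CPM in every library, with HBB at 0 counts throughout. The 6 B-lineage markers summed to between 25.5 and 67.8 CPM in Jurkat, mostly CD79A, and to between 1.28 and 4.92 CPM in HSB-2. Of the 5 NK markers, only GNLY passed 1 CPM in HSB-2, with 71.7 CPM for wild-type cells, 13.4 CPM for the scrambled control, 182 CPM under shRNA-4057 and 184 CPM under shRNA-4058. The 10 most abundant genes took 14.9% and 17.0% of the counts in the Jurkat scrambled libraries and between 8.16% and 12.1% in the other 14. The part that these differences played in the results below was not tested. In bulk RNA, fewer cells with a transcript and less transcript per cell cannot be told apart.

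The targeted gene followed its labels. USP7 stood at 396 and 386 CPM in wild-type Jurkat and at 384 and 387 CPM in scrambled Jurkat, and fell to 139.96 and 145 CPM under shRNA-4057 and to 244 and 242 CPM under shRNA-4058. The HSB-2 values were 237 and 243 CPM for wild-type cells, 227 and 220.1 CPM for the scrambled control, 144 and 149 CPM under shRNA-4057 and 162 and 156 CPM under shRNA-4058. The shRNA libraries lay below the scrambled libraries of their line without overlap. The pooled log2 fold change was -0.97 in Jurkat (SE 0.24, edgeR adjusted p 0.020) and -0.55 in HSB-2 (SE 0.056, edgeR adjusted p 1.1e-04), where SE is the standard error, and the Jurkat call was lost without either of its scrambled libraries.

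**Figure D1:**
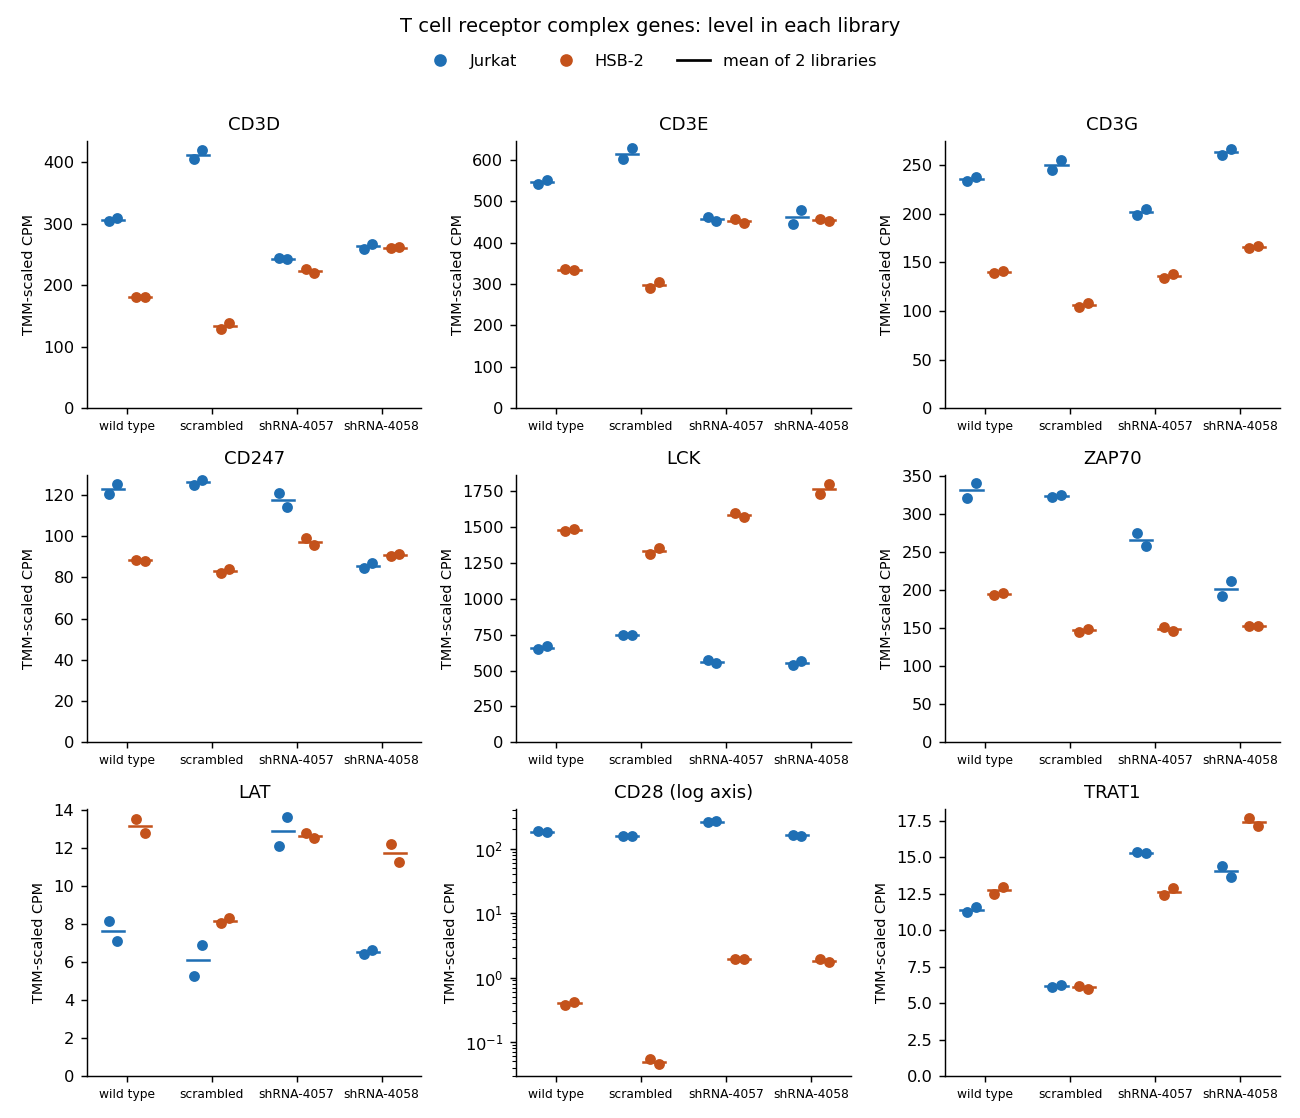
TMM-scaled CPM (vertical axes, logarithmic for CD28 and from 0 for the other genes) of the 9 genes in wild-type, scrambled, shRNA-4057 and shRNA-4058 cells; each point is a library, blue for Jurkat and orange for HSB-2, and each bar is the mean of 2 libraries. LCK lay between 1311 and 1800.3 CPM in HSB-2 and between 539 and 747 CPM in Jurkat, CD28 stayed at or below 1.94 CPM in HSB-2, and CD3D and CD3E of both lines met at like levels in the shRNA libraries.

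The levels of the 9 genes differed widely between genes and between the lines. Levels were also put on a scale of CPM per kilobase, where the length is that of all annotated exons of a gene joined. This length covers 3408 bases for CD3D and 9361 for CD247 and can exceed that of the transcript expressed. The order of the genes on this scale is therefore approximate. The median over the 8 Jurkat libraries was 192 for CD3E, 183 for LCK, 83.7 for CD3D, 62.8 for CD3G, 56.2 for ZAP70, 35.3 for CD28, 12.9 for CD247, 5.15 for TRAT1 and 1.55 for LAT. Over the 8 HSB-2 libraries it was 458 for LCK, 148 for CD3E, 58.8 for CD3D, 36.1 for CD3G, 28.6 for ZAP70, 9.57 for CD247, 5.17 for TRAT1, 2.73 for LAT and 0.218 for CD28. LCK and CD3E were thus close in Jurkat, where their library ranges overlapped, and LCK led in HSB-2. CD28 stood above CD247 in Jurkat and last in HSB-2.

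CD3D, CD3E and CD3G lie side by side on chromosome 11 of GRCh37. CD3E (ENSG00000198851.5) spans 118175445 to 118186890 on the plus strand, CD3D (ENSG00000167286.5) 118209790 to 118213420 on the minus strand and CD3G (ENSG00000160654.5) 118215059 to 118225876 on the plus strand. CD3G starts 1639 bases beyond the end of CD3D, so that this pair is transcribed in opposite directions from neighbouring starts, and the 3 genes together cover 50.4 kb. CD247 (ENSG00000198821.6) occupies 167394264 to 167487877 of chromosome 1 (minus strand), LCK (ENSG00000182866.12) 32716845 to 32751766 of chromosome 1 (plus strand) and ZAP70 (ENSG00000115085.9) 98330039 to 98356325 of chromosome 2 (plus strand). LAT (ENSG00000213658.6) lies on chromosome 16 from 28996147 to 29002105, CD28 (ENSG00000178562.13) on chromosome 2 from 204571198 to 204603635 and TRAT1 (ENSG00000163519.9) on chromosome 3 from 108541617 to 108573852, each on the plus strand. Exons of CD247 overlap those of POU2F1 on the opposite strand, and exons of LAT overlap 1 long noncoding RNA gene on each strand. The strand setting of the counting was not given in the sources used here, so the share of reads that belongs to each of these overlapping genes is uncertain.

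The promoters of the genes whose lines or treatments differed most are shown because the study asked about targets of E proteins, which bind, as does TAL1 with them, to the E-box letters CANNTG. RefSeq promoter windows of 300 bases (250 before and 50 after a start) were at hand for 7 of the 9 genes and 11 starts; CD3E and CD3G were without one. The E-box was found in 8 of these 11 windows, against 68.7% of 35116 windows of the same length over the genome. The letters are palindromic at the fixed bases, so a match on one strand is a match on the other. Capitals mark the E-boxes in the windows below (GRCh37, 5′ to 3′ on the gene's strand), and a match describes letters, not a bound site.
CD28, chr2:204571112-204571411, plus strand: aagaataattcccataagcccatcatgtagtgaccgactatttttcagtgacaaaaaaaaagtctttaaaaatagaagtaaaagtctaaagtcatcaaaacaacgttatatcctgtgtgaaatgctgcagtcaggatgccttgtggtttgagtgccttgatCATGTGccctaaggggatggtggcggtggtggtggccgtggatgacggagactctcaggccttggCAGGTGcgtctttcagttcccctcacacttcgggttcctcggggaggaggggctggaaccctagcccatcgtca
LCK upstream start, chr1:32716616-32716915, plus strand: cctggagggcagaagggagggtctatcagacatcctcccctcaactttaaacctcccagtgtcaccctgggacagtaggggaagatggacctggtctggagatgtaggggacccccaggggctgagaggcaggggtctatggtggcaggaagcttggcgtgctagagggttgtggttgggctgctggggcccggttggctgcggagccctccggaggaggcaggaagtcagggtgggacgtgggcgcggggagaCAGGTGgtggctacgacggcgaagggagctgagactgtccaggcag
LCK downstream start, chr1:32739472-32739771, plus strand: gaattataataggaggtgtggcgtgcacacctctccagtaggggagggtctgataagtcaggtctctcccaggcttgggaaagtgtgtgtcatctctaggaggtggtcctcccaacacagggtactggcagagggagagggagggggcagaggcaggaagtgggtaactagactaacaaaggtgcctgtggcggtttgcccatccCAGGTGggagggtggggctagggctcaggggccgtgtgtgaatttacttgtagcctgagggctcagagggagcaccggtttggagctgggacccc
CD3D, chr11:118213371-118213670, minus strand: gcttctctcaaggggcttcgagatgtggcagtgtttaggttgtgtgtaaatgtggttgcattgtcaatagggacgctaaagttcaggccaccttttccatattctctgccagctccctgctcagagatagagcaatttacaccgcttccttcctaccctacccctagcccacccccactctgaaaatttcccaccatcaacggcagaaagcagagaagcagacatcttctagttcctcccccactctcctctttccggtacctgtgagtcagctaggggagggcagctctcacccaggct
TRAT1, chr3:108541383-108541682, plus strand: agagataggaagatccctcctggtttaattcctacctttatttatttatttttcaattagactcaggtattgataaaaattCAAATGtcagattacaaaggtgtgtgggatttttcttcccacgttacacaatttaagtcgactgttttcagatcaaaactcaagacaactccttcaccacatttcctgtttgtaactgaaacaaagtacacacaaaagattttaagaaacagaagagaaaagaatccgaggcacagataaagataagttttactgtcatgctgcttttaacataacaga
The E-box CAGGTG, a variant found in 20.6% of all windows, occurs in the windows of CD28 and CD247, both windows of LCK, 1 start of ZAP70 and 1 start of LAT, while the window of CD3D holds no E-box and that of TRAT1 holds only CAAATG. The letters TGTGGT, the core bound by RUNX factors, were searched on both strands and occur in the windows of CD28, TRAT1, CD3D, the upstream start of LCK and 1 start of LAT, against 13.1% of all windows. Of the other letters searched, CAGCTG (17.9% of all windows) occurs at starts 1 and 3 of ZAP70 and at 1 start of LAT. GGAA (95.5%) occurs in each window except 1 start of ZAP70, and AGATAA (10.3%) only in that of TRAT1. Whether any of these letters are more frequent here than over the genome was not tested.

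The contrast of the lines was first taken in wild-type cells, whose labels name no treatment. LCK, LAT and TRAT1 were higher in HSB-2, and CD28, ZAP70, CD3D, CD3G, CD3E and CD247 were lower. The 9 genes were all called at an adjusted p under 0.05 by edgeR's quasi-likelihood test in the fit of 16 libraries, in a contrast in which 68.1% of 23063 tested genes were called (33.5% higher and 34.6% lower in HSB-2). The median log2 fold change of the 9 genes was -0.71.

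CD28 separated the lines most. The Jurkat values were 186 and 182 CPM for wild-type cells, 159 and 158 CPM for the scrambled control, 256 and 266 CPM under shRNA-4057 and 163 and 159 CPM under shRNA-4058. The HSB-2 values were 0.381 and 0.410 CPM for wild-type cells, 0.0536 and 0.0455 CPM for the scrambled control, 1.938 and 1.941 CPM under shRNA-4057 and 1.92 and 1.72 CPM under shRNA-4058. The lowest Jurkat library was thus far above the highest HSB-2 library. The HSB-2 levels rest on few reads, 87 and 39 counts in wild-type, 10 and 8 in scrambled, 166 and 201 under shRNA-4057 and 399 and 116 under shRNA-4058, where 3 counts, the limit that a count of 0 allows, correspond to between 0.0127 and 0.0392 CPM. The wild-type contrast was -8.88 on the log2 scale (SE 0.067, edgeR adjusted p 2.0e-30), a 469.6-fold lower level in HSB-2.

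LCK, the kinase that starts the signal, went the other way. In wild-type cells it stood at 648 and 669 CPM in Jurkat and at 1473 and 1484 CPM in HSB-2, a log2 fold change of 1.17 (SE 0.032, edgeR adjusted p 5.0e-20). Each of the 8 HSB-2 libraries lay above each of the 8 Jurkat libraries. Of the 9 genes, LCK in this direction and CD3G and CD28 in the other did not overlap between the lines, and 37% of all tested genes did not overlap. ZAP70, the kinase that LCK activates, was at 322 and 342 CPM in wild-type Jurkat and 193 and 197 CPM in wild-type HSB-2, a log2 fold change of -0.77 (SE 0.042, edgeR adjusted p 6.3e-14).

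The 3 CD3 chain genes differed by similar amounts in wild-type cells. CD3D stood at 304 and 309 CPM in Jurkat and at 180.4 and 181 CPM in HSB-2, CD3E at 542 and 552 against 337 and 333 CPM, and CD3G at 233 and 237 against 139 and 141 CPM. The log2 fold changes were -0.76 (SE 0.037), -0.71 (SE 0.036) and -0.75 (SE 0.036), with edgeR adjusted p of 4.0e-15, 1.2e-14 and 3.1e-15. CD247 differed less, with 121 and 125 CPM in Jurkat and 88.7 and 87.8 CPM in HSB-2 (log2 fold change -0.48, SE 0.039, edgeR adjusted p 1.3e-10).

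The adaptors were higher in wild-type HSB-2. LAT, the scaffold on which the downstream complex assembles, stood at 8.18 and 7.10 CPM in Jurkat and 13.5 and 12.8 CPM in HSB-2 (log2 fold change 0.78, SE 0.095, edgeR adjusted p 1.0e-07). TRAT1 stood at 11.3 and 11.6 CPM in Jurkat and 12.5 and 13.0 CPM in HSB-2 (0.16, SE 0.064, edgeR adjusted p 0.034), a call that was lost without any 1 of the 4 wild-type libraries and when only those 4 libraries entered the fit (adjusted p 0.082).

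The contrast of the lines depended on the condition in which it was taken. CD3D was lower in HSB-2 by -1.63 on the log2 scale in scrambled cells and by -0.13 under shRNA-4057, and under shRNA-4058 the value was -0.01 (edgeR adjusted p 0.82). CD3E was lower by -1.05 in scrambled cells, while the value was -0.02 with either hairpin (adjusted p 0.71 and 0.58). In CPM, CD3E stood between 445 and 480.2 in the 4 Jurkat shRNA libraries and between 449 and 457 in the 4 HSB-2 shRNA libraries, so that the lines overlapped there. CD3G remained lower in HSB-2 in each condition, by -1.24 in scrambled, -0.57 under shRNA-4057 and -0.67 under shRNA-4058 cells. LCK remained higher, by 0.84, 1.5 and 1.68 in the same order, and CD28 remained lower, by -11.61, -7.07 and -6.44. LAT was higher in HSB-2 in scrambled (0.43) and shRNA-4058 cells (0.86), with -0.02 in shRNA-4057 cells (edgeR adjusted p 0.84).

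**Figure D2:**
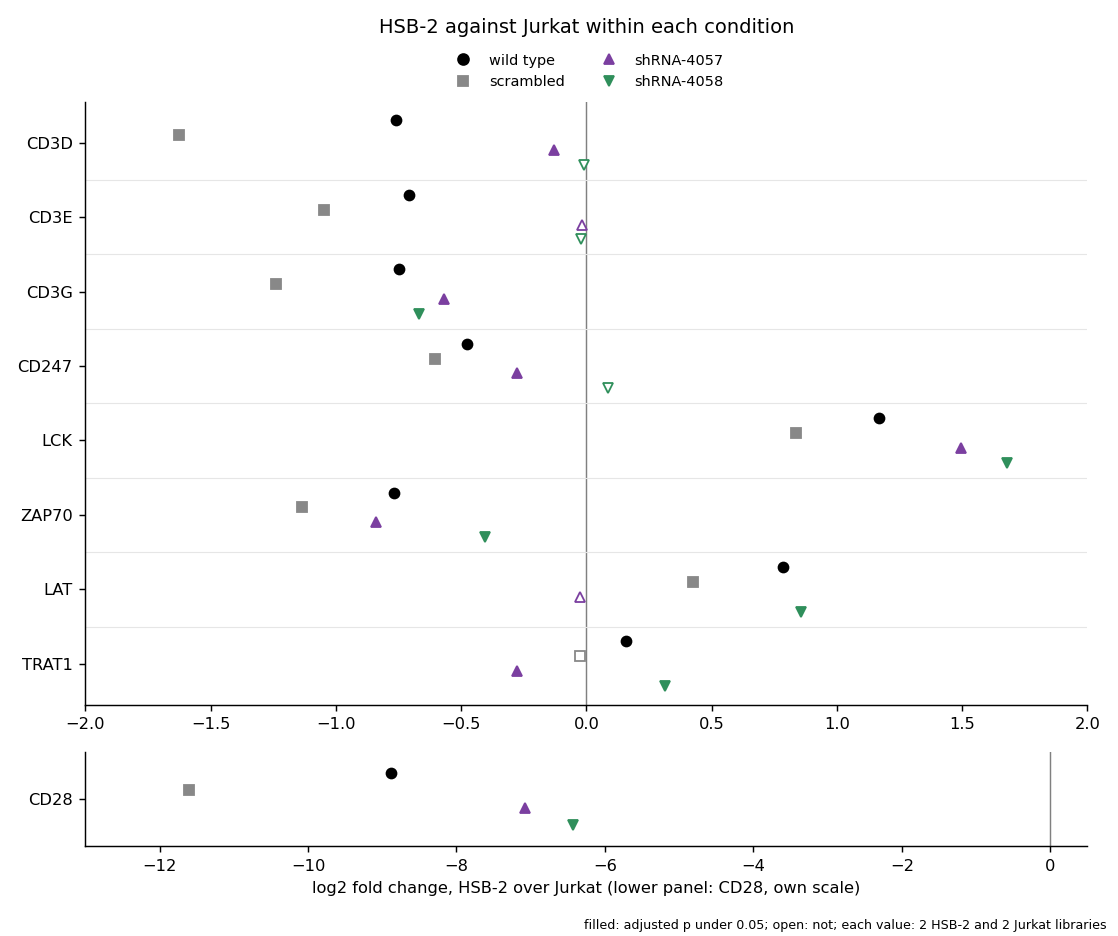
Log2 fold change of HSB-2 over Jurkat (horizontal axis) for the 9 genes within wild-type, scrambled, shRNA-4057 and shRNA-4058 cells, from 2 libraries a line in each; filled symbols passed an adjusted p of 0.05 and CD28 has its own scale. CD3D moved from -1.63 in scrambled cells to -0.01 under shRNA-4058, and LCK stayed between 0.84 and 1.68.

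The effect of USP7 knock-down was measured by setting the 4 shRNA libraries of a line against its 2 scrambled libraries. The 2 hairpins were pooled as 1 group, so that the difference between them is part of the error and bears on which genes were called. The 4 libraries were treated as separate units although they come from 2 hairpins. The p-values therefore do not measure how far hairpins vary. In Jurkat, CD3D, CD3E, LCK and ZAP70 fell and TRAT1 rose, so that 5 of the 9 genes were called in a comparison in which 28% of 21288 tested genes were called (15.7% lower, 12.4% higher). In HSB-2, CD3D, CD3E, CD3G, CD247, LCK, LAT, CD28 and TRAT1 rose and none fell, 8 of the 9 genes in a comparison in which 38.1% of 21113 tested genes were called (20.3% higher, 17.8% lower). The median log2 fold change of the 9 genes was -0.29 in Jurkat and 0.58 in HSB-2, against 0.02 and -0.02 over all tested genes of these lines. The shRNA and scrambled libraries did not overlap for 7 of the 9 genes in Jurkat and 8 in HSB-2, as was so for 53.9% and 57.4% of all tested genes.

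CD3D showed this most plainly among the CD3 chains. In Jurkat it went from 404 and 419 CPM in scrambled cells to 243 and 243 CPM under shRNA-4057 and 259 and 267 CPM under shRNA-4058, and in HSB-2 from 128 and 139 CPM to 226 and 219 CPM and to 261 and 261 CPM. The shRNA libraries lay below the scrambled ones in Jurkat and above them in HSB-2. The log2 fold change was -0.68 in Jurkat (SE 0.061, edgeR adjusted p 4.7e-04) and 0.86 in HSB-2 (SE 0.087, edgeR adjusted p 9.4e-05).

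CD3E went from 603 and 629 CPM in scrambled Jurkat to 463 and 454 CPM under shRNA-4057 and 445 and 480.2 CPM under shRNA-4058, a log2 fold change of -0.40 (SE 0.053, edgeR adjusted p 0.0020). In HSB-2 it went from 291 and 306 CPM to 457 and 449 CPM and to 457 and 454 CPM, a log2 fold change of 0.61 (SE 0.049, edgeR adjusted p 2.7e-05). CD3G was at 245 and 255 CPM in scrambled Jurkat, 198 and 204 CPM under shRNA-4057 and 259.9 and 266 CPM under shRNA-4058. The hairpins thus lay on either side of the scrambled level, and the pooled value was -0.08 (SE 0.13, edgeR adjusted p 0.66). In HSB-2 CD3G rose from 104 and 108 CPM to 134 and 138 CPM under shRNA-4057 and 165 and 167 CPM under shRNA-4058 (log2 fold change 0.51, SE 0.097, edgeR adjusted p 0.0032).

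CD247 was at 125 and 127 CPM in scrambled Jurkat, 121 and 114 CPM under shRNA-4057 and 84.4 and 86.9 CPM under shRNA-4058, with a pooled value of -0.29 (SE 0.15, edgeR adjusted p 0.19). In HSB-2 it was at 82.0 and 84.2 CPM in scrambled cells, 99.0 and 95.6 CPM under shRNA-4057 and 90.4 and 91.6 CPM under shRNA-4058 (0.18, SE 0.058, edgeR adjusted p 0.034). Correcting for GC content and gene length turned the HSB-2 value to -0.02. Without HSB-2 scrambled replicate 1, which leaves 1 control library, the HSB-2 calls of CD3G, CD247 and LCK were lost. That of CD247 was also lost without scrambled replicate 2 or shRNA-4057 replicate 1.

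LCK fell in Jurkat from 747 and 745 CPM in scrambled cells to 573 and 551 CPM under shRNA-4057 and 539 and 564 CPM under shRNA-4058, a log2 fold change of -0.40 (SE 0.048, edgeR adjusted p 0.0013). In HSB-2 it rose from 1311 and 1355 CPM to 1599 and 1569.9 CPM and to 1732 and 1800.3 CPM, a log2 fold change of 0.33 (SE 0.065, edgeR adjusted p 0.0035). ZAP70 fell in Jurkat from 322 and 325 CPM to 275 and 258 CPM under shRNA-4057 and 192 and 212 CPM under shRNA-4058 (-0.44, SE 0.13, edgeR adjusted p 0.044), a call lost without either Jurkat scrambled library or without shRNA-4058 replicate 2. In HSB-2 the ZAP70 libraries overlapped, with 146 and 149 CPM in scrambled cells, 151 and 146 CPM under shRNA-4057 and 152 and 153 CPM under shRNA-4058 (0.04, SE 0.048, edgeR adjusted p 0.57). When an offset corrected for gene length and GC content, the HSB-2 call of LCK was lost (0.08) and ZAP70 was called lower there (-0.22, edgeR adjusted p 0.028).

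TRAT1 rose in both lines against scrambled cells. In Jurkat it went from 6.13 and 6.27 CPM in scrambled cells to 15.4 and 15.3 CPM under shRNA-4057 and 14.4 and 13.7 CPM under shRNA-4058 (log2 fold change 1.27, SE 0.096, edgeR adjusted p 2.5e-04). In HSB-2 it went from 6.20 and 5.98 CPM to 12.4 and 12.9 CPM and to 17.7 and 17.1 CPM (1.31, SE 0.16, edgeR adjusted p 2.8e-04). It was the only one of the 9 genes called in the same direction in both lines, and 4% of the 19342 genes tested in both lines were called so. CD3D, CD3E and LCK were called in opposite directions, as were 8.45% of those genes. The wild-type levels of TRAT1 lay above the scrambled ones, at 11.3 and 11.6 CPM in Jurkat and 12.5 and 13.0 CPM in HSB-2. In HSB-2 they were near those under shRNA-4057. Against wild-type cells the shRNA value of TRAT1 was 0.39 in Jurkat and 0.24 in HSB-2, where it was not called.

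LAT was at 5.26 and 6.93 CPM in scrambled Jurkat, 12.1 and 13.6 CPM under shRNA-4057 and 6.44 and 6.62 CPM under shRNA-4058. Only the shRNA-4057 libraries lay above both scrambled ones, and the pooled value was 0.69 (SE 0.34, edgeR adjusted p 0.16). In HSB-2 LAT rose from 8.04 and 8.36 CPM to 12.8 and 12.5 CPM and to 12.2 and 11.3 CPM (0.58, SE 0.087, edgeR adjusted p 8.9e-04).

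CD28 in Jurkat had a pooled value of 0.44 (SE 0.22, edgeR adjusted p 0.18), from the levels given above: the shRNA-4057 libraries were high and the shRNA-4058 libraries were near the scrambled ones. In HSB-2 it rose by 5.22 on the log2 scale (SE 0.24, edgeR adjusted p 1.6e-06), a 37.4-fold rise from a level resting on 10 and 8 counts. Even so, the HSB-2 shRNA level stayed below that of each Jurkat library.

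**Figure D3:**
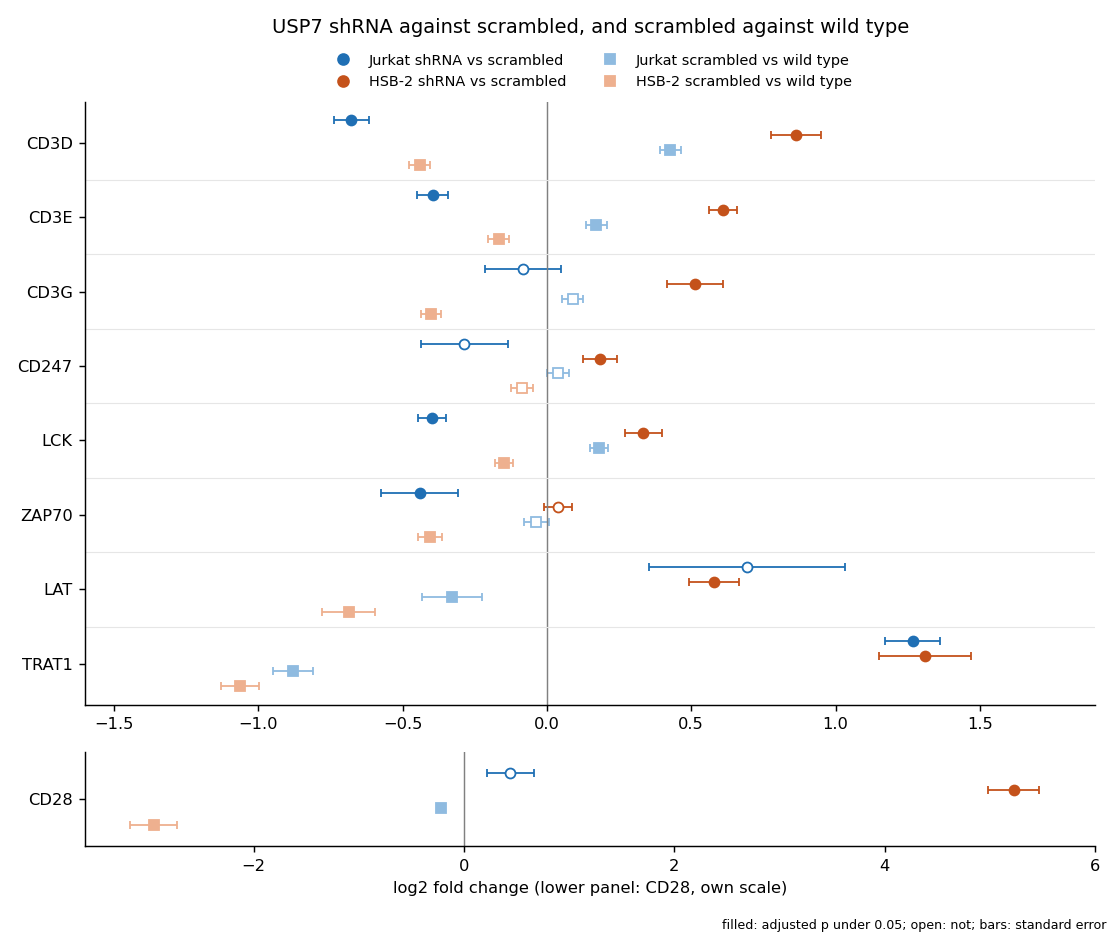
Log2 fold changes (horizontal axis, bars are standard errors) of the 9 genes for the 4 USP7 shRNA against the 2 scrambled libraries of a line (circles) and for 2 scrambled against 2 wild-type libraries (squares), in Jurkat (blue) and HSB-2 (orange); filled symbols passed an adjusted p of 0.05 and CD28 has its own scale. CD3D was -0.68 and 0.86 for shRNA and 0.43 and -0.44 for scrambled against wild-type cells, in Jurkat and HSB-2.

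The difference between the lines was tested itself, as an interaction over the 12 libraries with shRNA or a scrambled control. The shRNA effect was higher in HSB-2 than in Jurkat for 7 of the 9 genes, in a test that called 37.7% of 22732 genes (20.6% higher and 17.1% lower in HSB-2). The differences were 1.57 for CD3D, 1.03 for CD3E, 0.62 for CD3G, 0.49 for CD247, 0.76 for LCK, 0.50 for ZAP70 and 4.81 for CD28 on the log2 scale, with edgeR adjusted p between 4.8e-07 and 0.039. For LAT the difference was -0.09 (SE 0.36, edgeR adjusted p 0.88) and for TRAT1 0.07 (SE 0.20, edgeR adjusted p 0.83). The calls of CD247 and ZAP70 were lost without any 1 of the 4 scrambled libraries, that of CD247 also without either HSB-2 shRNA-4057 library or Jurkat shRNA-4058 replicate 2, and that of CD3G without HSB-2 scrambled replicate 1 or Jurkat scrambled replicate 2. With the GC and length correction the difference was 0.18 for CD247 and 0.10 for ZAP70, neither of them called (edgeR adjusted p 0.37 and 0.50), and 0.38 for LCK, which was still called. With the hairpins tested apart, an alternative added after the data were seen, the difference was -0.45 for LAT under shRNA-4057 (adjusted p 0.0086) and 0.43 under shRNA-4058 (adjusted p 0.011), and -0.25 (adjusted p 0.034) and 0.34 (adjusted p 0.0035) for TRAT1 in the same order.

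Each hairpin was also set against scrambled cells singly; the difference between the hairpins was not tested. This used the fit of all libraries, in which only the libraries of a group define the error. In Jurkat shRNA-4057 changed the 9 genes (3 higher and 6 lower), where 50% of all genes were called, 22.7% higher and 27.3% lower. In the same line shRNA-4058 changed 6 (1 higher and 5 lower), where 46.5% were called, 19.7% higher and 26.7% lower. CD3D, CD3E, CD247, LCK and ZAP70 were called lower and TRAT1 higher with both hairpins, 6 genes in a line in which 32% of all genes were called in one direction with both. CD247 was the smallest of the shRNA-4057 changes (-0.099, edgeR adjusted p 0.040). Its call was lost without shRNA-4057 replicate 2 (-0.059), without either scrambled library and with the GC content and length offset (-0.038). It was also lost with the replicate block (-0.099, adjusted p 0.059) and with either other filter on low counts. In none of these settings were all 9 genes called under shRNA-4057. CD3G fell under shRNA-4057 (-0.31, edgeR adjusted p 8.2e-08) and had 0.07 under shRNA-4058 (adjusted p 0.098). LAT and CD28 rose under shRNA-4057, by 1.08 (adjusted p 2.9e-09) and 0.72 (adjusted p 1.2e-13), and had 0.10 and 0.03 under shRNA-4058 (adjusted p 0.46 and 0.56). USP7 itself was reduced further by shRNA-4057 (-1.43) than by shRNA-4058 (-0.67) in Jurkat. In HSB-2 the 8 genes that the pooled comparison called rose under shRNA-4057 (where 43.6% of all genes were called, 21.9% higher and 21.7% lower). They also rose under shRNA-4058 (where 52.8% were called, 26.6% higher and 26.2% lower), and ZAP70 had 0.01 and 0.05. The offset for GC content and gene length turned CD247 to a called -0.13 under shRNA-4058 (edgeR adjusted p 2.6e-04) and ZAP70 to a called -0.15 under shRNA-4057 and -0.31 under shRNA-4058 (edgeR adjusted p 3.9e-05 and 5.8e-11). Of all genes, 35.2% were called in one direction under both hairpins in HSB-2. The values for shRNA-4057 and shRNA-4058 in HSB-2 were 0.74 and 0.97 for CD3D, 0.60 and 0.61 for CD3E, 0.36 and 0.65 for CD3G, 1.06 and 1.52 for TRAT1 and 5.26 and 5.2 for CD28. Both hairpins were set against the same scrambled libraries.

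The scrambled libraries differed from wild-type ones in these genes. In Jurkat 6 of the 9 genes differed, where 25.9% of all genes were called (14.8% higher and 11% lower): CD3D, CD3E and LCK were higher in scrambled cells by 0.43, 0.17 and 0.18, and LAT, CD28 and TRAT1 were lower, with -0.33, -0.22 and -0.88. The LAT call was lost without wild-type replicate 1 (-0.22) or scrambled replicate 1 (-0.15), and LAT had -0.55 without scrambled replicate 2. In HSB-2 8 of the 9 genes were lower in scrambled cells, where 34.1% of all genes were called (16.1% higher and 17.9% lower). The values were -2.95 for CD28, -1.06 for TRAT1, -0.69 for LAT, -0.44 for CD3D, -0.41 for ZAP70, -0.40 for CD3G, -0.17 for CD3E and -0.15 for LCK, while CD247 had -0.09 (edgeR adjusted p 0.095). These differences run against the shRNA effect in each of the genes that the pooled comparison called and this one called too. The shRNA and scrambled comparisons share the scrambled libraries.

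Set against wild-type cells in place of scrambled ones, the shRNA effect was smaller for CD3D, CD3E, LCK, CD28 and TRAT1 in both lines. In HSB-2 it was 0.41 for CD3D (adjusted p 0.0070), 0.43 for CD3E (adjusted p 4.0e-04) and 2.25 for CD28 (adjusted p 1.9e-04), which were called by the quasi-likelihood test. CD3G, CD247, LCK and TRAT1 had 0.10, 0.09, 0.18 and 0.24 and LAT had -0.11, none of them called, and ZAP70 was lower with -0.38 (adjusted p 8.7e-04). The HSB-2 count thus went from 8 higher to 3 higher and 1 lower, where 25.1% of all tested genes were called (13.3% higher and 11.8% lower). In Jurkat against wild-type cells CD3D (-0.25, edgeR adjusted p 0.0497), CD3E (-0.22, edgeR adjusted p 0.043), LCK (-0.21, edgeR adjusted p 0.042) and TRAT1 (0.39, edgeR adjusted p 0.038) were called, where 8.41% of all tested genes were called (3.1% higher and 5.31% lower), and ZAP70 had -0.47 (adjusted p 0.072). The difference between the lines was then called for CD3D (0.70), CD3E (0.70), LCK (0.43) and CD28 (2.07), as it was for 19.1% of all tested genes (11.5% higher and 7.56% lower), and not for CD3G, CD247 and ZAP70 (0.13, 0.38 and 0.14). The hairpins came by lentivirus and wild-type cells are labelled with no treatment, so that USP7 loss and the lentiviral treatment cannot be told apart in the values against wild-type cells.

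The receptor chains on which the complex is built were followed through the constant region genes. Of 7 listed chain genes, 5 had a row: TRDC was listed at 0 counts in each library, and TRAC and TRBC1 were not analysed here. TRBC2, a beta chain constant gene, fell in Jurkat (-0.77, edgeR adjusted p 0.0072) and rose in HSB-2 (0.46, edgeR adjusted p 0.0047), with group means of 491 CPM in scrambled, 240 CPM under shRNA-4057 and 324 CPM under shRNA-4058 in Jurkat, and 559, 692 and 840.1 CPM in HSB-2. The gamma chain genes TRGC1 and TRGC2 were low in Jurkat, where the scrambled mean of TRGC2 was 2.35 CPM, the hairpin means 10.9 and 10.2 CPM and the wild-type mean 7.61 CPM, and higher in HSB-2, where group means lay between 22.4 and 37.1 CPM for TRGC1 and between 277 and 382 CPM for TRGC2. The shRNA values were 1.73 for TRGC1 and 2.19 for TRGC2 in Jurkat, 0.51 for TRGC1 and 0.28 for TRGC2 (edgeR adjusted p 0.10) in HSB-2, and the wild-type line contrasts were 4.14 and 5.22. TRBC2, TRGC1 and TRGC2 each have a near-identical copy among the constant genes, so their counts are uncertain. PTCRA, the invariant chain of the pre-T-cell receptor, had 102 to 143 counts in wild-type and scrambled Jurkat libraries, 25 and 34 under shRNA-4057 and 94 and 111 under shRNA-4058 (pooled value -1.04, edgeR adjusted p 0.16), and 1 count in all 8 HSB-2 libraries together. Singly, it fell under shRNA-4057 (-2.10, edgeR adjusted p 1.5e-05) and had -0.48 under shRNA-4058 (adjusted p 0.19).

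Around the 9 genes, 45 further genes of the pathway were listed as kinases and phosphatases, adaptors, downstream signalling genes, and costimulatory and inhibitory receptors. With the receptor chains, 14 of 47 tested genes were called in Jurkat (7 higher and 7 lower). Of all tested genes there, 28% were called (12.4% higher and 15.7% lower). HSB-2 had 36 of 45 called, 34 higher and 2 lower, where 38.1% of all tested genes were called (20.3% higher and 17.8% lower). In scrambled against wild-type HSB-2 cells, 34 of 47 of these genes were called, 4 higher and 30 lower in scrambled cells. Of all genes, 34.1% were called in that comparison. The median shRNA log2 fold change of these lists together was 0.11 in Jurkat and 0.51 in HSB-2. The HSB-2 count was 23 (21 higher and 2 lower) with both controls together, and it was also lower without scrambled replicate 1. No share over all genes is at hand for either setting. The Jurkat count was lower without either scrambled library, in fits for which no share over all genes is at hand. With wild-type in place of scrambled libraries, where 8.41% of all tested genes were called, the Jurkat count was 5.

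Among the 9 kinases and phosphatases, 8 rose in HSB-2 and none fell (88.9% called, against 38.1% of all tested genes). In Jurkat 2 rose and 1 fell (33.3% called, against 28% of all tested genes). TXK, a kinase of the TEC family, rose by 3.0 on the log2 scale in HSB-2 (edgeR adjusted p 3.1e-06), where the scrambled mean was 0.628 CPM, the hairpin means 5.35 and 4.68 CPM and the wild-type mean 3.80 CPM. In Jurkat PTPN22, a phosphatase that dampens receptor signalling, rose by 0.34 and UBASH3B, another such phosphatase, fell by 0.33. Of 17 adaptors, 13 rose and 2 fell in HSB-2 (88.2% called, against 38.1% of all tested genes). In Jurkat 2 adaptors rose and 3 fell (29.4% called, against 28% of all tested genes). SKAP1, an adaptor that links the receptor to integrins, rose by 3.72 in HSB-2 (adjusted p 1.6e-07), where the scrambled mean was 0.952 CPM, the hairpin means 12.5 and 12.4 CPM and the wild-type mean 7.73 CPM, while LIME1 fell by 0.42. In Jurkat PAG1, which recruits the LCK inhibitor CSK to the membrane, rose by 1.18 and SLA, an adaptor in receptor down-regulation, fell by 0.99 (edgeR adjusted p 0.0081 and 0.0033). Against wild-type Jurkat, PAG1 had -0.17 and PTPN22 -0.0048, neither of them called.

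Of the 11 downstream signalling genes, 7 rose in HSB-2 (63.6%, against 20.3% of all tested genes). None of them was called in Jurkat, where 28% of all tested genes were called. Of the 8 costimulatory and inhibitory receptors, 5 were tested in HSB-2, where 4 rose (80%, against 20.3% of all tested genes). In Jurkat 6 were tested and 3 called (50%, against 28% of all tested genes). CD226 rose there by 1.46 and ICOS and CD2 fell, ICOS by 1.32 (edgeR adjusted p 0.037). CD2, an adhesion receptor of T cells, rose in HSB-2 by 2.38 (adjusted p 6.8e-05), where the scrambled mean was 0.802 CPM, the hairpin means 4.94 and 3.40 CPM and the wild-type mean 3.45 CPM, against group means between 71.6 and 113 CPM in Jurkat. As with the 9 genes, the HSB-2 wild-type levels of TXK, SKAP1 and CD2 lay above the scrambled ones, with log2 values of scrambled over wild-type cells of -2.60, -3.02 and -2.15.

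Between the wild-type lines, 43 of 47 tested pathway genes differed, 26 higher and 17 lower in HSB-2, where 68.1% of all tested genes were called (33.5% higher and 34.6% lower). The largest values of each list were SOS1 (2.33) and RASGRP1 (-0.93) among downstream genes, CD6 (1.76) and THEMIS (-3.45) among adaptors, TXK (1.19) and PTPN22 (-1.35) among kinases and phosphatases, and ICOS (4.2) and CD226 (-6.33) among costimulatory receptors. ICOS, a relative of CD28, was thus at 12.8 CPM in HSB-2 and 0.682 CPM in Jurkat as wild-type group means, the reverse order of CD28.

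**Figure D4:**
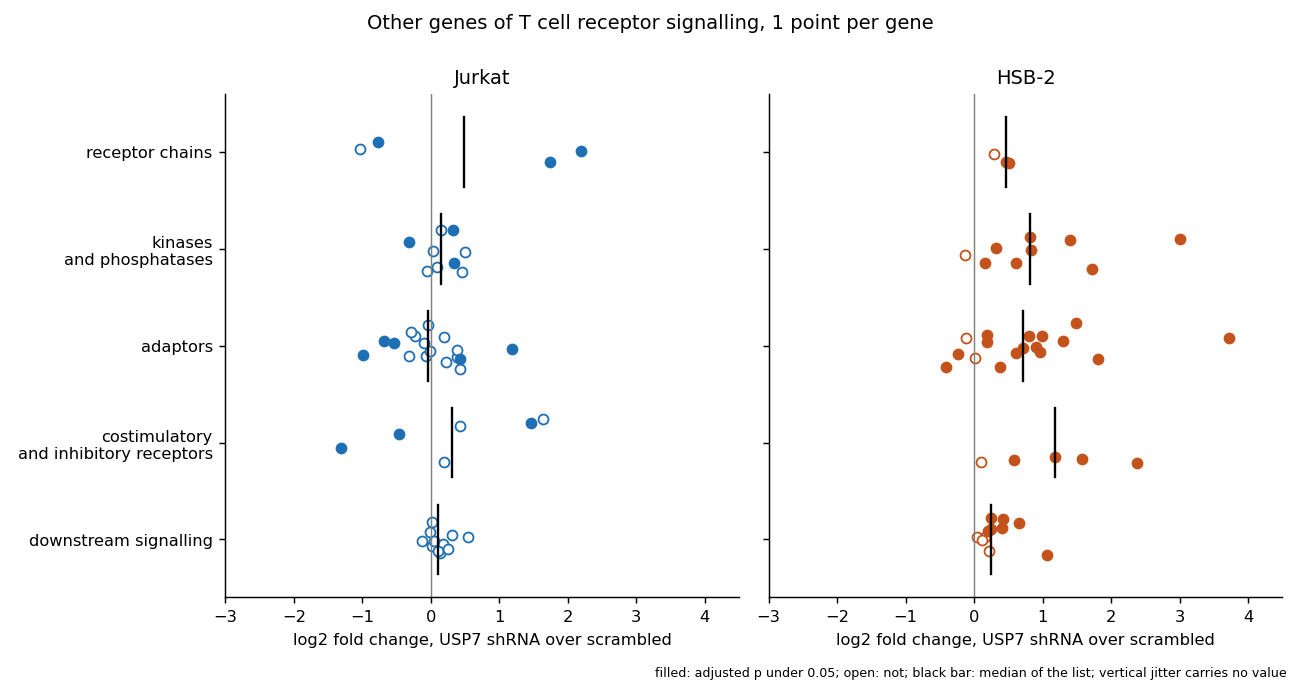
Log2 fold change of USP7 shRNA over scrambled libraries (horizontal axis) for the tested genes of 5 lists of T cell receptor signalling genes, 1 point per gene, in Jurkat (left) and HSB-2 (right); filled points passed an adjusted p of 0.05 and black bars are list medians. In Jurkat 7 genes were higher and 7 lower (12.4% and 15.7% of all tested genes), and in HSB-2 34 were higher and 2 lower (20.3% and 17.8%).

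The genes whose pattern was most like that of a member were sought by Pearson's r of log2 CPM over the 16 libraries after subtracting the mean of each line, among 12556 genes with at least 1 CPM on average in each line. The points share lines, scrambled libraries and depth, and the values are a description. CD3D was most like APP (r = 0.98), LGALS9 (0.98) and MT2A (0.98), CD3E like CMIP (0.98), CD3G like CLU (0.96), CD247 like MOV10 (0.98), LCK like TERC (0.99), ZAP70 like HAUS5 (0.96), LAT like STIM2 (0.96), TRAT1 like FLT1 (0.97) and CD28 like a gene listed only as ENSG00000260539.1 (0.99). Among the 9 genes themselves, CD3D, CD3E and LCK were alike (r = 0.91 to 0.95), while CD3G against CD247 gave -0.07 and LAT against CD3D gave -0.05.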

How the data were processed

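RNA was measured in 16 libraries of 2 T-ALL lines, in 8 groups taken from the sample labels. The deposited values are raw read counts per Ensembl gene, which the authors made from ribosome-depleted, stranded total RNA libraries by mapping to hg19/GRCh37 with BWA and counting with HTSeq 0.6.1p1. STAR and CASAVA are also named in the submitters' processing notes, and the annotation release and strand setting were not given in the sources used here. Gene symbols were matched to 96.1% of the 57820 identifiers, and positions and exon lengths came from GENCODE genes on GRCh37.

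Counts were tested with edgeR 4.0.16 (quasi-likelihood F test, TMM normalization, filterByExpr, R 4.3.3), and a gene was called at a Benjamini-Hochberg adjusted p under 0.05 over all tested genes. The pooled comparisons fitted the 6 shRNA and scrambled libraries of a line, the difference between lines 12 libraries, and all others the 16 libraries as 8 groups. The script was tested on simulated data that held no difference between hairpins, so that test does not bear on the pooling of hairpins. Total counts were 76.6 to 235 M per library, and 3 counts, the limit that a count of 0 allows, were 0.0127 to 0.0392 CPM; this covers counting error only. Replicates differed by more than counting noise.

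Alternatives were DESeq2 1.42.0, its size factors, other filters, an offset for GC content and length, the replicate number as a block, other controls, and each library left out. Named genes were the 9 members, USP7, each receptor chain gene and the called genes with the highest and lowest log2 fold change of each list, apart from items not reported here. The members, lists and rules were chosen with earlier results of these data known. Promoter sequences are from RefSeq (GRCh37).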

Additional observations from a re-analysis of the deposited data

Results flagged for a closer look

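The effect of USP7 shRNA against scrambled cells differed between HSB-2 and Jurkat, by a test of the difference itself, for 7 of the 9 genes. That test called 37.7% of all tested genes (20.6% higher and 17.1% lower in HSB-2). On the log2 scale, HSB-2 minus Jurkat, the difference was 1.57 for CD3D, 1.03 for CD3E, 0.62 for CD3G, 0.49 for CD247, 0.76 for LCK, 0.50 for ZAP70 and 4.81 for CD28. The differences of CD3G, CD247 and ZAP70 were not called with wild-type in place of scrambled libraries, where 19.1% of all tested genes were called. With the GC content and length offset those of CD247 (0.18) and ZAP70 (0.10) were not called and that of LCK was 0.38.

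CD28 was also flagged for 1 low library among the 4 HSB-2 shRNA libraries. The values 1.938, 1.941, 1.92 and 1.72 CPM had a gap of the lowest to its neighbour of 0.902 of their range, above Dixon's critical value for 4 values. The lowest was shRNA-4058 replicate 2, with 116 counts, against 166, 201 and 399 in the others. The set mixes 2 hairpins, and the rule allows neither for that nor for counting error. Of 18 sets of 4 libraries examined in this way, chance alone picks about 1 in 20.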

How the results depend on the processing

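Of the single-gene values under other settings, 1786 kept direction and side of the threshold, 116 lost a call, 26 gained one and 33 changed sign. With wild-type in place of scrambled libraries, members called were 4 in HSB-2 and 4 for the difference between lines, and 5 pathway genes were called in Jurkat; signs turned for CD3G (0.011), PAG1 (-0.17) and PTPN22 (-0.0048) in Jurkat, for LAT (-0.11) and ZAP70 (-0.38) in HSB-2, and for TRAT1 (-0.11) and TRGC1 (0.19) in the difference. With both controls together HSB-2 had 4 members and 23 pathway genes called, ZAP70 was -0.18 there and TRAT1 -0.059 in the difference. With the hairpins as separate groups, 9 members and 36 pathway genes were called in Jurkat. These counts come from the fit of all 16 libraries, where shRNA-4057 alone called 50% of all genes in Jurkat and shRNA-4058 alone 46.5%. No share over all genes is at hand for this setting, for both controls together or for the GC content and length offset. With shRNA-4058 alone the difference for LAT was 0.43, and with shRNA-4057 alone it was -0.25 for TRAT1. The GC content and length offset gave 22 pathway genes in Jurkat; CD247 became -0.024 in HSB-2, -0.13 (called) there with shRNA-4058, and 0.019 and -0.012 for scrambled against wild-type HSB-2 and Jurkat, and ZAP70 became -0.22 in HSB-2, -0.15 with shRNA-4057 and -0.31 with shRNA-4058, all 3 called. The line contrast turned for CD247 (0.087 in shRNA-4058 cells), LAT (-0.025), TRAT1 (-0.28) and USP7 (0.038) in shRNA-4057 cells, and TRAT1 (-0.026) and TXK (-0.94) in scrambled cells. The cause was not tested.

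Leaving out 1 library at a time, Jurkat pathway genes called ranged from 4 (without either scrambled library) to 18, HSB-2 members from 5 (without scrambled replicate 1) to 8 and members called in the difference from 4 (without HSB-2 scrambled replicate 1 or Jurkat scrambled replicate 2) to 7. Ranges that crossed 0 were LAT -0.30 to 0.11 and TRAT1 -0.026 to 0.15 in the difference, LAT -0.087 to 0.35 for Jurkat shRNA-4058, ZAP70 -0.0099 to 0.038 for HSB-2 shRNA-4057, and, for scrambled against wild-type cells, ZAP70 -0.080 to 0.0061 in Jurkat and TRGC2 -0.088 to 0.0020 in HSB-2. Same-numbered libraries did not deviate together (r between -0.046 and 0.054), so the numbers were not taken as pairs. The replicate block left 4 members called in Jurkat, 7 in HSB-2 and 6 in the difference, and no share over all genes is at hand for it. CD28 was not tested where at least 10 counts were required in every library.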
